A study of Xenopus laevis with 4 samples.

Results

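The slc12a genes encode the cation-chloride cotransporters, membrane proteins that carry chloride across the plasma membrane together with sodium, potassium or both. The members were all gene copies with a RefSeq symbol from slc12a1 to slc12a9, with transcripts summed by symbol, and 8 of 39176 gene models met that rule. They were 6 L copies and 2 S copies, the L and S genomes being the pair of subgenomes of the allotetraploid frog *Xenopus laevis*. They comprised the sodium-dependent importers slc12a1.L, slc12a2.L and slc12a2.S, the potassium chloride exporters slc12a4.L and slc12a5.L, and slc12a8.L, slc12a9.L and slc12a9.S. Other symbols in that range were not analysed here.

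RNA was sequenced from the posterior part of *Xenopus laevis* tail bud embryos (stage 26), obtained by a transverse cut behind the otic vesicle. In the picrotoxin group the explants were kept for 3 h with 0.5 mM picrotoxin, and in the control group for 3 h without it. The labels name no vehicle, strain or genotype. In both groups the ventral yolk was then removed, and each of the 2 libraries per group was a pool of explants from 3 embryos. Picrotoxin blocks the chloride pore of GABA-A receptors and of glycine receptors. Comparing the groups shows which slc12a transcripts differed in abundance once the drug had been present for that time.

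Importers of this family bring chloride into the cell along the sodium gradient, and exporters remove it along the potassium gradient. The balance between them sets the chloride level in a neuron, and with it whether an open GABA-A or glycine receptor depolarizes or hyperpolarizes the cell. In vertebrate neurons the importer NKCC1, encoded by slc12a2, predominates early, and the exporter KCC2, encoded by slc12a5, increases as neurons mature. The same proteins serve cell volume control in most tissues and salt transport in kidney tubules.

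The libraries held 20285273 and 20974160 estimated counts in picrotoxin replicates 1 and 2, and 18164631 and 20660589 in control replicates 1 and 2. The share of ribosomal RNA was 42.0% and 25.1% in the picrotoxin libraries and 38.0% and 39.6% in the control libraries, so picrotoxin replicate 2 had the most counts for other genes. Of the markers of the posterior level, hoxa9, hoxb9, hoxc9, hoxc10, hoxd10 and cdx4, all 11 gene copies had counts in every library. Of the markers of forebrain and eye, tissue in front of the cut, hesx1.S had 0 counts in all libraries, and otx2.S averaged 0.18 CPM (counts scaled to library size by TMM) in picrotoxin and 0.11 CPM in control libraries. Counts were present in all libraries for 8 of the 11 copies on that list, and 4 passed the filter on low counts. The highest was rax.S, at 7.30 and 4.45 CPM in picrotoxin and 6.76 and 5.60 CPM in control libraries. The other 3 were six3.S, at a mean of 1.43 CPM in picrotoxin and 1.30 CPM in control libraries, emx1.L (0.87 and 0.99 CPM) and emx1.S (0.91 CPM in both).

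All 8 members were detected in all 4 libraries and passed the filter on low counts, with 72 to 1957 counts per library. No member passed an adjusted p of 0.05 with picrotoxin (edgeR's quasi-likelihood test, Benjamini-Hochberg adjustment over 26752 genes), where 47 genes, or 0.176%, did. Of all genes tested, 25 (0.0935%) were called lower and 22 (0.0822%) higher with picrotoxin. The lowest adjusted p among the members was 0.523. An unadjusted p under 0.05 was reached by 2 members, slc12a2.L and slc12a8.L, against 7.51% of all genes tested. DESeq2 also called 0 members, against 0.115% of the genes for which it gave an adjusted p. There slc12a8.L alone had an unadjusted p under 0.05. Of the 35819 genes with a DESeq2 p, which include those with few counts, 1.93% did. Of the 26752 genes tested with edgeR, 671 did. The log2 fold change was below 0 for 6 of the 8 members, with a median of -0.15, beside 50.1% of all genes tested and a median of -0.00041. Leaving out control replicate 2 gave 15 called genes, leaving out picrotoxin replicate 1 gave 131 and leaving out picrotoxin replicate 2 gave 158. No member was called in any of these fits.

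**Figure D1:**
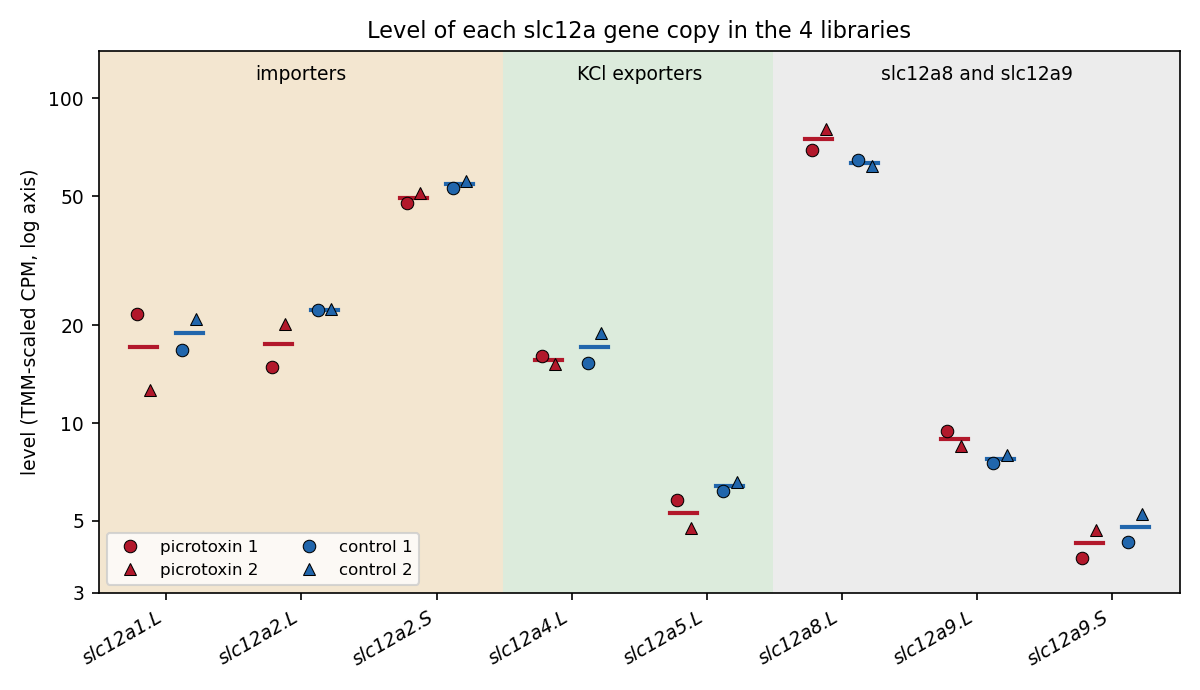
Level of each slc12a copy in TMM-scaled CPM on a log axis, with picrotoxin libraries in red to the left of control libraries in blue; circles are replicate 1, triangles replicate 2 and short bars group means. The libraries of the groups are apart for slc12a2.L, slc12a2.S, slc12a5.L, slc12a8.L and slc12a9.L, and overlap for slc12a1.L, slc12a4.L and slc12a9.S.

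The 5 importer and exporter copies all had log2 fold changes below 0, between -0.34 and -0.14, and none was called. The slc12a2 gene encodes NKCC1, which moves sodium, potassium and chloride together and is used by neurons, glia and many epithelia. Its L copy (gene ID 100141486, chromosome 1L) was at 14.9 and 20.2 CPM in picrotoxin replicates 1 and 2, against 22.3 and 22.4 CPM in control replicates 1 and 2. Both picrotoxin libraries lay below both control libraries, and most of the distance came from picrotoxin replicate 1. The log2 fold change was -0.34 ± 0.13 (SE), with a 95% interval of -0.61 to -0.064 before adjustment (adjusted p = 0.523). It was -0.58 without picrotoxin replicate 2 and -0.14 without picrotoxin replicate 1, and over the fits that left out 1 library the adjusted p ran from 0.0617 to 0.935.

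The slc12a2.S copy (gene ID 108707193, chromosome 1S) was at 47.5 and 51.0 CPM in picrotoxin libraries and at 53.1 and 55.5 CPM in control libraries. The picrotoxin libraries again lay below the control libraries, by a smaller proportion than for the L copy. Its log2 fold change was -0.14 ± 0.10 (SE; 95% interval -0.35 to 0.073, adjusted p = 0.826). With both copies summed to a single gene, slc12a2 had a log2 fold change of -0.19 ± 0.099 (SE; 95% interval -0.40 to 0.011, adjusted p = 0.684).

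The L copy gave 23.9% and 28.4% of the slc12a2 counts in picrotoxin replicates 1 and 2. It gave 29.6% and 28.8% in control replicates 1 and 2. The 95% exact binomial intervals (Clopper-Pearson), which cover counting error only, were 21.5% to 26.46% and 26.3% to 30.6% in the picrotoxin libraries. They were 27.1% to 32.1% and 26.51% to 31.1% in the control libraries, so picrotoxin replicate 1 alone had an interval apart from those of the controls. How the deposited counts divide reads between near-identical L and S transcripts is not given in the sources used here, and the level of each copy is uncertain to that extent.

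Besides the cells named above, neural progenitors express slc12a2 in other vertebrates, and the markers of that cell type lay lower with picrotoxin. Their summed level over sox2, sox3, nes and fabp7 (6 of 6 copies detected in every library) was 94.6 and 96.2 CPM in picrotoxin libraries, against 141 and 125 CPM in control libraries. All 6 copies had log2 fold changes below 0, beside 50.1% of all genes tested, with a median of -0.53. Of them fabp7.L was called, beside 0.176% of all genes tested. The list was chosen with earlier results of these data known, so these counts are no independent result. In controls the progenitor sum was higher in replicate 1, while the slc12a2 copies summed to 75.4 and 77.9 CPM, higher in replicate 2. In picrotoxin libraries both were higher in replicate 2, where slc12a2 was at 71.2 CPM against 62.4 CPM in replicate 1. Epithelial lists did not show the same order. Epidermal markers (7 copies) summed to 9028 and 10163 CPM in picrotoxin replicates 1 and 2, and to 9210 and 8517 CPM in control replicates 1 and 2. Ionocyte markers (6 copies) summed to 71.1 and 80.9 CPM with picrotoxin and to 80.8 and 80.6 CPM in controls. Both sums overlapped between the groups. Neuronal markers, lower in sum, are given below. The part of any of these cell types in the slc12a2 values was not tested. In bulk RNA, fewer cells of a type and less RNA per cell cannot be told apart.

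The slc12a1 gene encodes NKCC2, the salt-reabsorbing cotransporter of kidney tubules, which in the frog embryo marks the pronephros. The slc12a1.L copy (gene ID 101101701, chromosome 3L) was at 21.7 and 12.6 CPM in picrotoxin replicates 1 and 2 and at 16.8 and 20.9 CPM in control replicates 1 and 2. The picrotoxin libraries held both the highest and the lowest value, so the groups overlapped and the spread within the picrotoxin group exceeded the difference between the means. The log2 fold change was -0.16 ± 0.32 (SE; 95% interval -1.10 to 0.79, adjusted p = 0.961), the widest interval among the members. Its sign depended on single libraries, with 0.20 without picrotoxin replicate 2 and 0.015 without control replicate 2, against -0.58 without picrotoxin replicate 1.

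Pronephros markers were low. The summed level of 8 copies of pax8, lhx1, kcnj1, slc5a2 and cdh16 was 16.5 and 16.2 CPM in picrotoxin libraries and 21.1 and 19.3 CPM in control libraries. Of the 6 copies tested, all had a log2 fold change below 0, beside 50.1% of all genes tested. None was called, beside 0.176% of all genes tested. Most of the sum came from pax8 and lhx1, with lhx1.S the highest copy, at 6.82 and 7.34 CPM in picrotoxin replicates 1 and 2. The near-equal sums in these libraries hid differences in both directions between single copies. There lhx1.L was at 2.56 and 1.44 CPM and kcnj1.L at 0.27 and 0.74 CPM. In control replicates 1 and 2 lhx1.L was at 2.05 and 2.12 CPM and kcnj1.L at 1.42 and 1.31 CPM. The kcnj1.L copy had the lowest log2 fold change of the list (-1.36, adjusted p = 0.379), from only 5 to 26 counts per library. The part of pronephros cells in the slc12a1.L values was not tested.

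A gene model with the symbol slc12a3l.S lies outside the rule and was added after its values were seen. It was at 43.9 and 75.2 CPM in picrotoxin libraries and 57.7 and 53.1 CPM in control libraries. Like slc12a1.L it varied more between the picrotoxin libraries than between the groups, but in the other order, with picrotoxin replicate 2 the higher (log2 fold change 0.11 ± 0.33, SE; adjusted p = 0.973). Endoderm markers (sox17a, a2m and foxa1, 5 of 5 copies detected in every library) summed to 219 and 418 CPM in picrotoxin replicates 1 and 2 and to 295 and 260 CPM in control replicates 1 and 2. Most of this sum was a2m.S, at 194 and 374 CPM in picrotoxin libraries and 258 and 228 CPM in control libraries. The sum, a2m.S and the foxa1 copies had the library order of slc12a3l.S, the reverse of that of slc12a1.L. The sox17a copies did not, and were highest in control replicate 1. The sox17a.S copy was at 3.36 and 6.76 CPM in picrotoxin libraries and 7.27 and 5.65 CPM in control libraries. A shared order over 4 libraries gives no measure of likeness between genes, and the sum largely repeats a2m.S. The part of endoderm in the values of either gene was not tested.

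**Figure D2:**
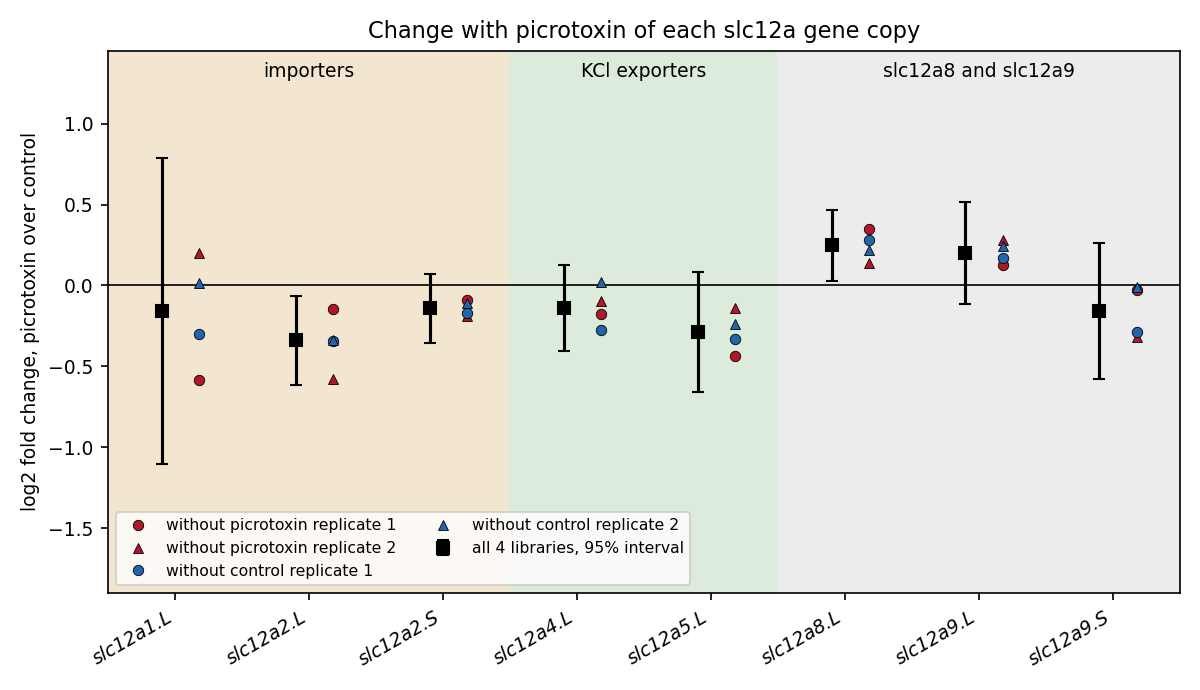
Log2 fold change of picrotoxin over control for each slc12a copy: black squares use all 4 libraries, with bars for the 95% interval, and coloured points leave out 1 library each (red for picrotoxin, blue for control, circles replicate 1, triangles replicate 2). Points for slc12a1.L spread from -0.58 to 0.20, whereas those for slc12a2.S stay between -0.19 and -0.090.

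The exporter slc12a4 encodes KCC1, a potassium chloride cotransporter of many tissues that serves cell volume control. The slc12a4.L copy (gene ID 398663, chromosome 1L) was at 16.0 and 15.2 CPM in picrotoxin libraries and 15.3 and 18.9 CPM in control libraries. The groups overlapped, and the highest library was control replicate 2. This gave a log2 fold change of -0.14 ± 0.13 (SE; 95% interval -0.41 to 0.13, adjusted p = 0.876), and 0.024 without control replicate 2.

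The exporter slc12a5 encodes KCC2, which is largely restricted to neurons. The slc12a5.L copy (gene ID 100380948, chromosome 9_10L) had 109 and 115 counts in picrotoxin libraries and 109 and 131 counts in control libraries. Scaled, these were 5.81 and 4.74 CPM with picrotoxin, against 6.19 and 6.61 CPM in controls. The picrotoxin libraries lay below the control libraries, with a gap between the groups smaller than the difference between the picrotoxin libraries. Its log2 fold change was -0.29 ± 0.18 (SE; 95% interval -0.66 to 0.082, adjusted p = 0.770), which ran from -0.43 without picrotoxin replicate 1 to -0.14 without picrotoxin replicate 2.

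Neuronal markers (elavl3, tubb2b, snap25, syt1, stmn2, gap43 and tubb3, 11 of 11 copies detected in every library) summed to 297 and 270 CPM in picrotoxin libraries, against 351 and 309 CPM in control libraries. Of the 11, 8 had a log2 fold change below 0, beside 50.1% of all genes tested, with a median of -0.22. None was called, beside 0.176% of all genes tested. Picrotoxin replicate 2 was the lowest library for both this sum and slc12a5.L. The control libraries were in opposite order, with the sum higher in replicate 1 and slc12a5.L higher in replicate 2 (6.19 and 6.61 CPM). The part of neuron number in the slc12a5.L values was not tested.

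Set against each other, importer and exporter counts kept nearly the same proportion in both groups. Summed over slc12a1.L and the slc12a2 copies, the importers were at 84.1 and 83.8 CPM in picrotoxin libraries and 92.2 and 98.8 CPM in control libraries. Summed over slc12a4.L and slc12a5.L, the exporters were at 21.8 and 19.9 CPM in picrotoxin libraries and 21.5 and 25.5 CPM in control libraries. The importer sum was lower in both picrotoxin libraries, while the exporter sums overlapped. The near-equal importer sums with picrotoxin came from opposite differences between replicates 1 and 2. There slc12a1.L was at 21.7 and 12.6 CPM, and the slc12a2 copies summed to 62.4 and 71.2 CPM. In control libraries the slc12a2 copies summed to 75.4 and 77.9 CPM.

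The ratio of importer to exporter counts was 3.85 and 4.21 in picrotoxin libraries and 4.28 and 3.87 in control libraries. On the log2 scale it averaged 2.01 ± 0.091 with picrotoxin and 2.03 ± 0.10 in controls (SD, n = 2 each), a difference of -0.016 that is smaller than the spread between pools. With 2 pools per group, and members chosen with earlier results known, no p is given for this ratio. CPM counts reads and was not divided by transcript length, for which no value was used here. The ratio therefore compares reads, not numbers of transcripts, and the order of levels among different genes cannot be read from it. It also covers RNA from all cells of the explants, so it is not a ratio within neurons. The mean of the log2 levels over copies, in which length cancels between libraries, differed between picrotoxin and control by -0.022.

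**Figure D3:**
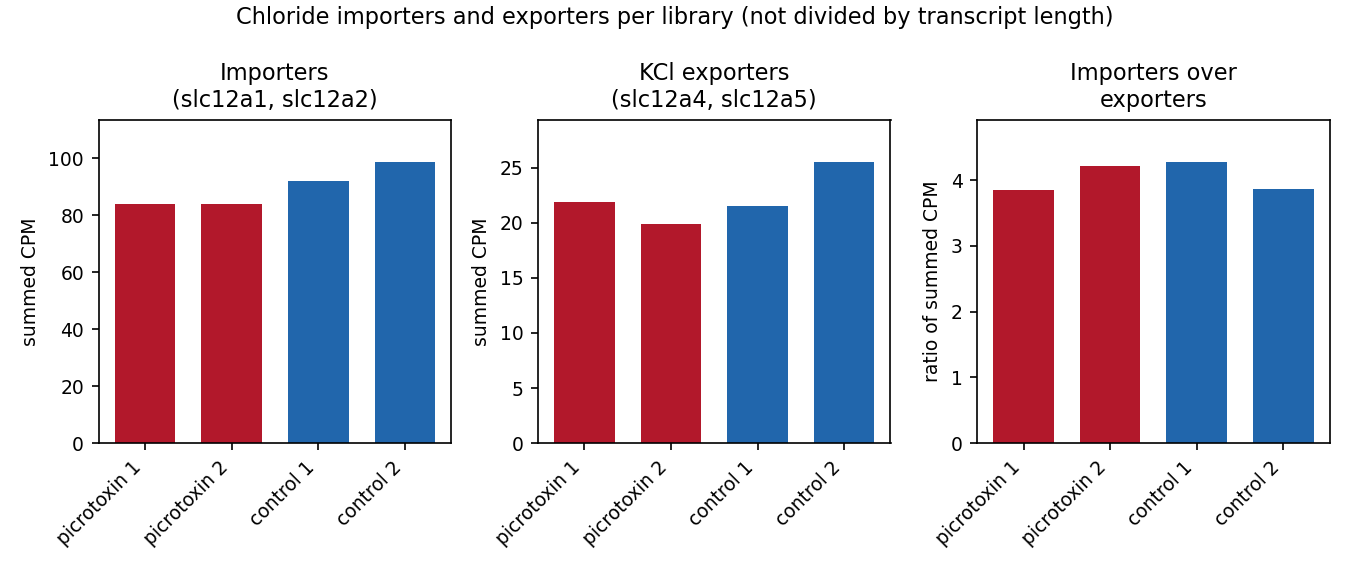
Summed CPM of the importers (left), summed CPM of the potassium chloride exporters (middle) and their ratio (right) in each library, picrotoxin in red and control in blue, with bars from 0. The importer sum is 84.1 and 83.8 CPM with picrotoxin against 92.2 and 98.8 CPM in controls, and the ratio lies between 3.85 and 4.28 in all 4 libraries.

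Within each role a single gene gave most of the reads. The slc12a2 copies made up 79.6 ± 7.6% of importer CPM with picrotoxin and 80.3 ± 2.1% in controls, and slc12a4.L made up 74.8 ± 2.0% of exporter CPM with picrotoxin and 72.7 ± 2.0% in controls (SD, n = 2 each). The summed slc12a2 CPM was 10.7 and 15.0 times that of slc12a5.L in picrotoxin libraries, against 12.2 and 11.8 times in control libraries. The picrotoxin libraries lay on either side of the controls, so this ratio did not separate the groups. Since slc12a2 is also used outside neurons, the ratio in this bulk RNA is not that of neurons.

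The members with no settled role in chloride balance included those that lay higher with picrotoxin. The slc12a8 product has no established ion transport activity and has been proposed to carry a nicotinamide nucleotide. The slc12a8.L copy (gene ID 446259, chromosome 9_10L) was at 69.5 and 80.7 CPM in picrotoxin libraries, against 64.7 and 61.9 CPM in control libraries. Both picrotoxin libraries lay above both control libraries. The log2 fold change was 0.25 ± 0.11 (SE; 95% interval 0.029 to 0.47 before adjustment, adjusted p = 0.576), and 0.14 without picrotoxin replicate 2.

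The slc12a9 product, also called CIP1, was described in mammalian cells as a protein that interacts with other cotransporters of the family. The slc12a9.L copy (gene ID 779157, chromosome 3L) was at 9.43 and 8.49 CPM in picrotoxin libraries and 7.56 and 7.97 CPM in control libraries, with no overlap (log2 fold change 0.20 ± 0.15, SE; adjusted p = 0.832). The slc12a9.S copy (gene ID 108703440, chromosome 3S) was at 3.84 and 4.70 CPM in picrotoxin libraries and 4.32 and 5.25 CPM in control libraries, with overlap (log2 fold change -0.16 ± 0.20, SE; adjusted p = 0.925). Leaving out 1 library moved slc12a9.L between 0.13 (without picrotoxin replicate 1) and 0.28 (without picrotoxin replicate 2). It moved slc12a9.S between -0.32 (without picrotoxin replicate 2) and -0.0086 (without control replicate 2). The copies had opposite signs in the fit of all libraries, neither interval excluding 0, and summed to a single gene they gave 0.078 ± 0.13 (SE; adjusted p = 0.940). The L copy gave 71.1% and 64.4% of slc12a9 counts in picrotoxin libraries and 63.6% and 60.3% in control libraries. The exact 95% binomial intervals of these shares were 65.0% to 76.6% and 58.9% to 69.6% with picrotoxin. They were 56.7% to 70.2% and 54.1% to 66.3% in controls, and every picrotoxin interval overlapped every control interval.

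Counted together, 5 of the 8 members had picrotoxin libraries that did not overlap the control libraries, beside 37.1% of all genes tested. In 3 of them (slc12a2.L, slc12a2.S and slc12a5.L) picrotoxin lay below, beside 18.9% of genes, and in 2 (slc12a8.L and slc12a9.L) above, beside 18.2%. Among the 15028 genes with a mean level in the range of the members, 4.52 to 69.2 CPM, 33 were called, and the smallest called change was 0.51 on the log2 scale in size. Intervals of slc12a2.S, slc12a4.L and slc12a8.L ended short of that size in both directions. Those of slc12a1.L, slc12a2.L, slc12a5.L, slc12a9.L and slc12a9.S reached past it in at least 1 direction. That size comes from genes picked because they passed, and these intervals are before adjustment. It is therefore no detection limit for a member, and no change is excluded by it.

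The deposited counts were given per transcript, 30 in all for the 8 members, and the stability of the split between transcripts differed from gene to gene. Of the 7 members with several transcripts, 4 had the same leading transcript in all libraries and 3 (slc12a2.L, slc12a4.L and slc12a9.S) did not. The leading transcript of slc12a2.S held 65.5% and 64.5% of its counts in picrotoxin libraries and 64.0% and 62.9% in control libraries. That of slc12a8.L held 60.3% and 66.2% with picrotoxin and 64.0% and 60.6% in controls.

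In slc12a2.L the transcript with the highest mean share held 25.6% and 33.2% in picrotoxin libraries and 41.1% and 55.5% in control libraries. Another transcript of the gene held 53.4% and 28.3% with picrotoxin and 17.1% and 11.1% in controls. Neither overlapped between the groups, but both varied widely within them, and a further transcript was estimated at 0 and 103 counts in the picrotoxin libraries. Shares within a gene are tied together, since a higher share for some transcripts lowers those of the others. How many of all transcripts had the groups apart was not counted. No background is therefore given, and nothing is concluded from the separation. Such separation was not particular to slc12a2.L. The slc12a9.S transcript with the highest mean share held 46.43% and 39.17% with picrotoxin and 64.45% and 80.75% in controls. The leading transcript of slc12a2.S was also apart, by a small margin. In slc12a1.L the second of 3 transcripts held 40.0% and 5.0% with picrotoxin and 25.0% and 24.4% in controls. These shares are estimates for transcripts that share most of their sequence, so no counting interval and no test is given for them.

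**Figure D4:**
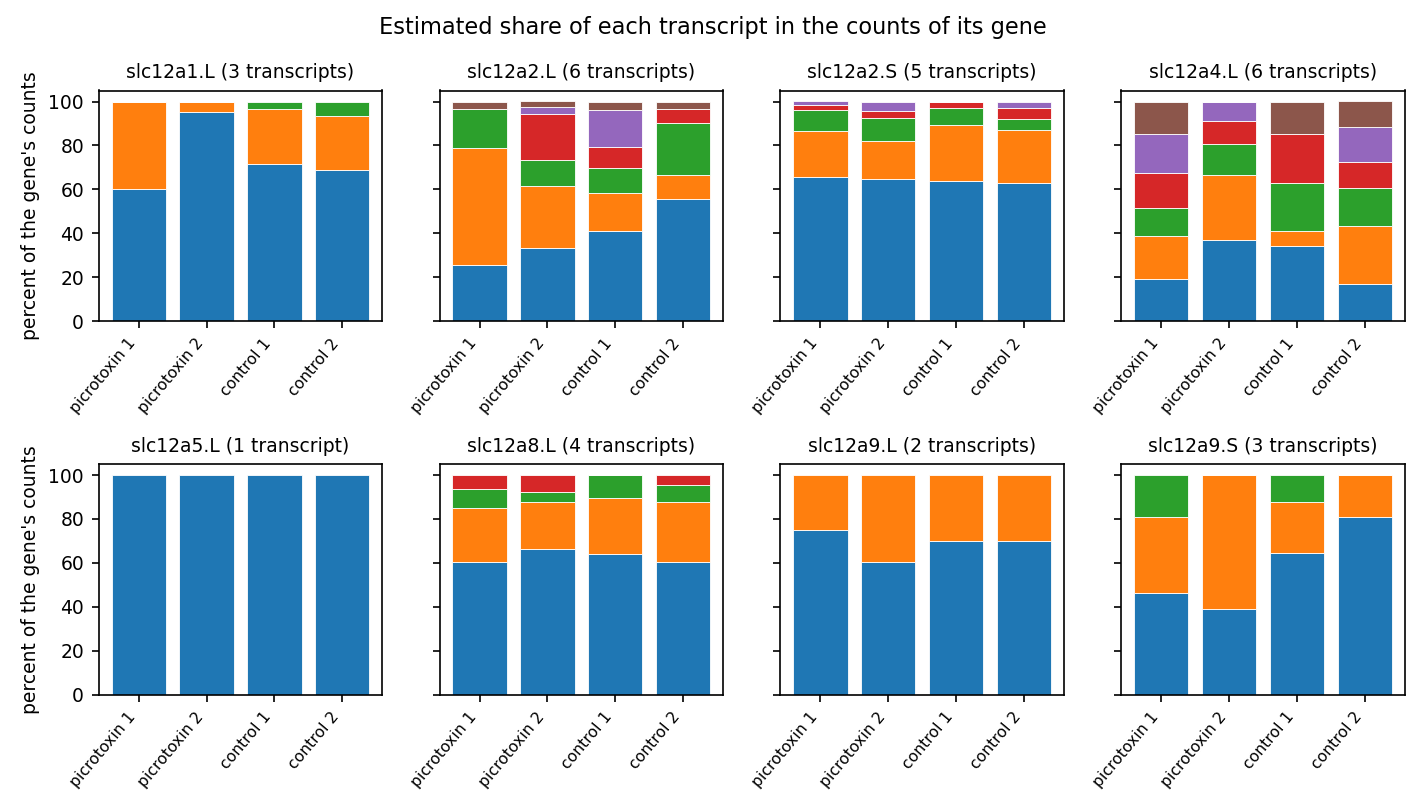
Stacked bars of the percent of each gene's estimated counts given to each of its RefSeq transcripts, per library, with picrotoxin libraries left of controls; colours order the transcripts of a gene by mean share and do not match between panels. The largest share varies little across libraries for slc12a2.S and slc12a8.L, though smaller shares differ, and 1 transcript of each is at 0% in control replicate 1. The split varies within groups for slc12a1.L, slc12a2.L, slc12a4.L and slc12a9.S.

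Activity of these transporters is set by phosphorylation. WNK kinases, which respond to chloride and osmolarity, activate SPAK (stk39) and OSR1 (oxsr1), and these kinases switch sodium-dependent importers on and potassium chloride exporters off. The sodium pump maintains the gradients that drive both. Of 14 regulator genes sought, 12 were found as 22 copies, and of 8 pump genes all were found as 14 copies. Of the 34 copies tested, 0 rose, 0 fell and 34 did not pass (edgeR's quasi-likelihood test; background 0.176%), and DESeq2 called 0. At an unadjusted p under 0.05 edgeR gave 5 copies (background 7.51%) and DESeq2 gave 2. The DESeq2 background was 671 of the 26752 genes that passed the same filter as these copies. Over the 35819 genes with a DESeq2 p, which include those with few counts, it was 1.93%. The lowest adjusted p was 0.479, and the median log2 fold change was 0.091, beside -0.00041 for all genes tested. The groups did not overlap for 16 of the 34 copies, beside 37.1% of all genes tested. In 12 of them picrotoxin lay above, beside 18.2% of genes, and in 4 below, beside 18.9%. Copies named below for a small p tend not to overlap because of that choice.

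The WNK kinase genes lay slightly higher with picrotoxin, with no copy called. The wnk1.S copy was at 51.6 and 45.6 CPM in picrotoxin libraries, against 39.0 and 42.8 CPM in control libraries (log2 fold change 0.25 ± 0.11, SE; adjusted p = 0.585). For all 5 copies of wnk1, wnk3 and wnk4, counted after their values were seen, both picrotoxin libraries lay above both controls, beside 18.2% of all genes tested. Their log2 fold changes were 0.098 to 0.42, among them wnk3.S at 0.21 (adjusted p = 0.727). Their summed level was 180 and 171 CPM in picrotoxin libraries and 160 and 154 CPM in control libraries.

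Downstream, the OSR1 kinase gene copy oxsr1.L was at 38.8 and 43.6 CPM in picrotoxin libraries, against 34.2 and 33.4 CPM in control libraries, with no overlap (log2 fold change 0.29 ± 0.11, SE; adjusted p = 0.479). The oxsr1.S copy overlapped, at 25.9 and 31.5 CPM with picrotoxin and 23.8 and 28.7 CPM in controls (log2 fold change 0.13, adjusted p = 0.875). The SPAK gene copies stk39.L (log2 fold change 0.13) and stk39.S (0.15) also overlapped. The neto2.L copy, which encodes an auxiliary subunit known in mammals to bind KCC2, was low, at 1.12 and 1.11 CPM with picrotoxin, against 1.93 and 2.07 CPM in controls (log2 fold change -0.84 ± 0.32, SE; adjusted p = 0.505). For neto2.L, as for oxsr1.L, the groups did not overlap. The brain-type creatine kinase gene ckb.L, highest in CPM among the regulators, was at 493 and 393 CPM in picrotoxin libraries and 428 and 396 CPM in control libraries, and the groups overlapped (log2 fold change 0.11, adjusted p = 0.903).

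Among pump genes, the modulator gene copy fxyd6.S was at 8.42 and 6.60 CPM in picrotoxin libraries, against 6.25 and 4.94 CPM in control libraries (log2 fold change 0.42, adjusted p = 0.580). The beta subunit copy atp1b1.S was at 133 and 140 CPM with picrotoxin, against 176 and 147 CPM in controls (log2 fold change -0.24, adjusted p = 0.614). Neither overlapped between the groups, but with 1 library left out their log2 fold changes ran from 0.24 to 0.60 for fxyd6.S and from -0.36 to -0.10 for atp1b1.S. The beta subunit copies atp1b1.L (log2 fold change -0.031) and atp1b2.L (0.19), also among the highest in CPM, overlapped. So did fxyd6.L, at 7.35 and 4.87 CPM in picrotoxin libraries and 6.08 and 6.40 CPM in control libraries (log2 fold change -0.049).

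**Figure D5:**
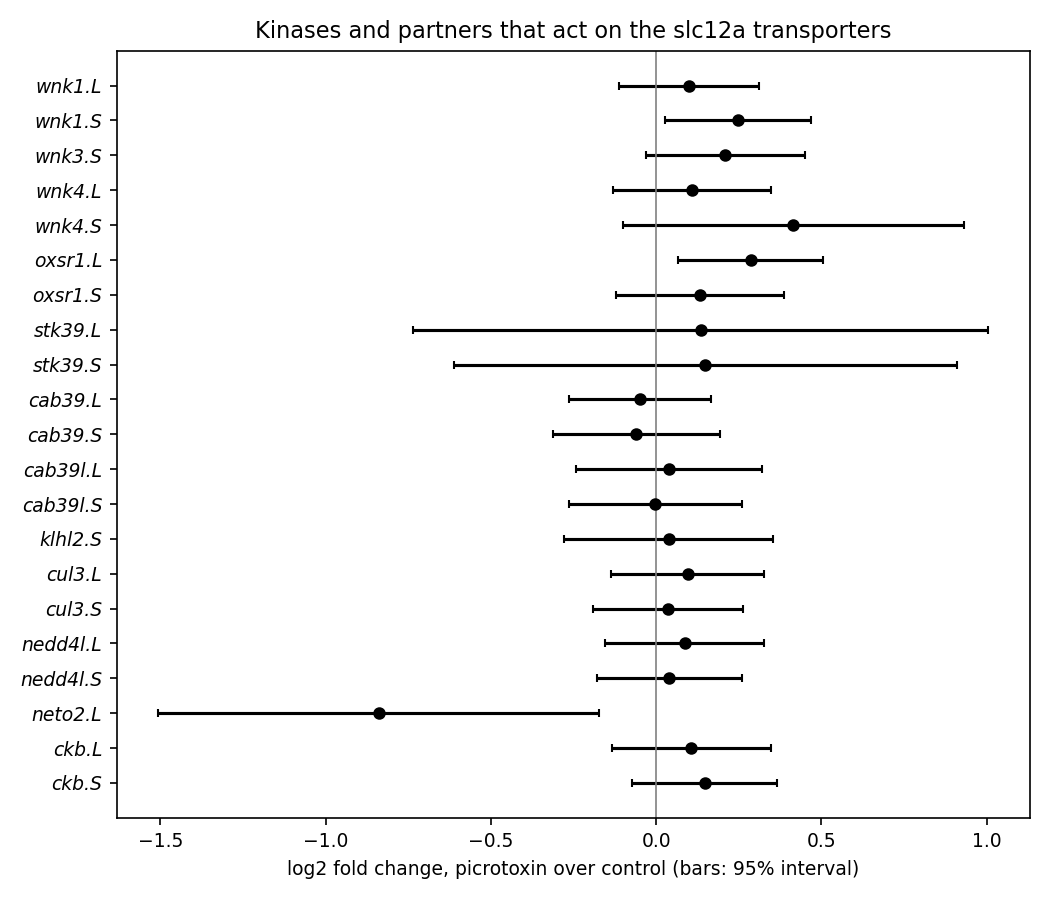
Log2 fold change of picrotoxin over control for the tested copies of kinases, scaffolds, ubiquitin ligase parts and partners that act on slc12a transporters, with 95% intervals before adjustment. The 5 wnk copies lie at 0.098 to 0.42, and neto2.L at -0.84 has the lowest value.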

How the data were processed

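The libraries came from total RNA and a strand-specific (directional) kit, per the labels' protocols. The values that the authors deposited are estimated counts for each RefSeq transcript, without scaling, in 1 table. Which aligner, counting tool and genome build were used is not given in the sources used here. All 80178 transcripts matched the RefSeq annotation of Xenopus_laevis_v10.1, used for symbols, gene IDs and chromosome names, and were summed to 39176 genes and rounded. The design planned levels per transcript length, but no lengths were used, so levels are CPM.

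Genes were filtered with filterByExpr, scaled with TMM and tested with edgeR 4.0.16 in R 4.3.3 (glmQLFit and glmQLFTest, robust = TRUE, 2 picrotoxin against 2 control pools). Tests were two-sided and adjusted by Benjamini-Hochberg over 26752 genes. DESeq2 1.42.0 was an alternative. Standard errors were derived from F. The labels do not say whether the pools were of separate clutches. The p-values and intervals rest on the spread between pools. For each gene this spread was moderated toward that of other genes, so it does not come from that gene's pools alone. Chi-square per degree of freedom between libraries was at least 4.16, so none was treated as a repeat. The test was checked on simulated data with 200 changed genes. Other alternatives were scaling, filters, ribosomal RNA, summed copies, a replicate block and leaving out each library.

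The members and lists were chosen with earlier results of these data known. Named genes were all members, and of the regulator and pump lists the 6 copies with the smallest p and the 4 with the highest level. Other copies of oxsr1 and fxyd6, and those of stk39, are set beside them. Of the marker lists only those that bear on a member are given. Some genes of these lists are not reported here, and counts and sums leave them out.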

Additional observations from a re-analysis of the deposited data

How the results depend on the processing

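No slc12a, regulator or pump copy was called in any of the 12 alternative fits. The number of all genes called was 47, and 22 with DESeq2, 22 with library totals only, 189 with no filter on low counts and 15 to 158 with 1 library left out. Of 96 alternative log2 fold changes of single members, 92 kept their sign and 0 passed the threshold (lowest adjusted p = 0.0617). The exceptions were slc12a1.L (-0.58 to 0.20 with 1 library left out), slc12a4.L (-0.28 to 0.024) and slc12a9.S, where the value with the L copy added was 0.078. Scaling by totals only put the median of all genes at 0.11 and turned no member's sign. The importer to exporter ratio of counts in controls, 4.07 as a geometric mean, was 3.27 without slc12a1, 0.80 without slc12a2 and 2.71 as a mean of logs. With slc12a3l.S added, chosen after seeing the data, it was 6.44, and the difference of log2 ratios with picrotoxin was then 0.088, against -0.016. Without slc12a3l.S it ran from -0.089 to 0.056 with 1 library left out. The ratio per transcript length was not run.

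Same-numbered pools did not deviate together (correlation of deviations -0.018), so replicate numbers were not taken as pairs. With a replicate block 41 genes and 0 members were called.

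Depth limits slc12a9.S and slc12a5.L most, with 72 to 131 counts per library, and 2 pools per group limit all members.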
